A study of Mus musculus with 2 samples.

Results

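The zinc proteases of the extracellular space and their tissue inhibitors were examined in the cervical loop (CL) of Med1 KO and WT incisors. The set held all probes whose platform gene symbol begins with Mmp, Adam, Adamts, Adamtsl or Timp and a digit, apart from Mmp20, Mmp9, Mmp8, Adam10 and Adam17, which were left out. It came to 98 of the 25697 probes and to 64 of the 16593 named genes. Of these 64 genes, 17 encode matrix metalloproteinases (MMPs), 27 ADAMs, 14 ADAMTS proteases, 2 ADAMTS-like proteins and 4 tissue inhibitors of metalloproteinases (TIMPs).

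The mouse incisor grows throughout life from the CL, which holds epithelial stem cells next to mesenchyme. Both groups were C57BL/6 mice at 10 wk of age that carried MED1 fl/fl alleles, and the KO also carried K14Cre, which removes floxed Med1 where the keratin 14 promoter is active. The controls, WT here, therefore shared the floxed alleles, and mesenchyme, vessels and blood cells in the dissected tissue were not a target of the Cre. For each genotype 1 sample was measured on an Illumina MouseRef-8 bead array, with tissue from 3 mice combined per the labels, and only 1 column of values per genotype was at hand although the design text gives n = 3. No replicate value exists for any number below, so no p-value between genotypes was computed and every ratio describes these 2 columns.

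MMPs cleave collagens and other matrix proteins. ADAMs sit in the cell membrane and cut the outer parts off growth factors, receptors and adhesion proteins, and some have lost the catalytic site. ADAMTS proteases are secreted and cut proteoglycans and procollagens, ADAMTS-like proteins share their matrix-binding part without the protease, and TIMPs block the active site of these enzymes. In bone and tooth such enzymes take part in matrix turnover, and most are controlled after translation as well, by activation of the proenzyme and by inhibitors, which mRNA does not show.

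Levels are given as the deposited intensity, before normalization, and as a normalized log2 intensity after background correction and quantile normalization. The log2 ratio is KO minus WT on that normalized scale. A probe counted as detected where its detection p, its distance above negative control probes, was below 0.01 on either array, and the brightest such probe stood for a gene. Counts below or above 0 and counts by 25% group used the ratio as measured. For a gene detected on 1 array only, counts past a fold limit used a limited ratio, with the dim value raised to at least the lowest detected value of that array. Such a ratio depends on the background correction and is no lower bound of the fold. In bulk tissue, fewer cells of a type and less RNA per cell cannot be told apart.

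Med1 itself read 245.9 in WT and 172.9 in KO on its 1 detected probe of 4, which is 57.4% of WT after normalization. The tissue label was checked on markers. Of 11 matched markers of dental epithelium and ameloblasts 10 were detected, among them Amelx, Ambn, Enam, Shh and Krt14, and Sox2 was not. All 9 neutrophil markers had a higher value in KO, at a summed normalized intensity of 5848 against 2786 in WT. The brightest was S100a8, at 2031.3 in WT and 3488.7 in KO in deposited intensity. The paper lists S100a8 and S100a9 among calcium-binding genes raised in KO dental tissue of the maturation stage at 4 wk. Of the others, Lcn2 lay at 1.59, Ltf at 1.20, Mpo at 0.39 and Elane, detected in KO only, at a limited 0.31. Which cells these transcripts came from was not tested. All 6 detected immediate-early genes of 9 were lower, at 2213 against 4533. Smooth muscle markers, 5 of 7 detected below 0, summed to 11251 against 15398, and endothelial markers, also 5 of 7 below 0, to 2647 against 3486. Most of the smooth muscle sum came from Acta2, at 14813.3 in WT and 9734.4 in KO in deposited intensity, while Des lay at 0.30 and Mcam at 0.02. The widest endothelial ratio was that of Vwf, at -0.78. Cdh5 lay at 0.00 and Kdr, detected in KO only, at 0.22 measured and -0.03 limited.

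Mmp13, the collagenase of cartilage and bone, had the widest ratio of the 3 members with several detected probes. Its bright probe read 13397.9 in WT and 8269.4 in KO, and a second probe read 753.8 and 312.2. Both probes were well above background on both arrays, and both were lower in the KO. The log2 ratios were -0.57 for the bright probe, a 1.48-fold difference, and -1.41 for the second, a 2.65-fold difference. The remaining Mmp13 probe, at 117.6 and 115.1, was not detected on either array.

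The upstream sequence of Mmp13 is shown because the members nearest to it in the genome share an element with it. The stretch is the 250 bases before the RefSeq start of the gene at chr9:7272264-7272513, plus strand, build GRCm38.p6, 5′ to 3′. Capitals mark, in order, a Runt element (AACCACA), an AP-1 element (TGACTCA, which reads TGAGTCA on the other strand) and a TATA box (TATAAA).
Mmp13: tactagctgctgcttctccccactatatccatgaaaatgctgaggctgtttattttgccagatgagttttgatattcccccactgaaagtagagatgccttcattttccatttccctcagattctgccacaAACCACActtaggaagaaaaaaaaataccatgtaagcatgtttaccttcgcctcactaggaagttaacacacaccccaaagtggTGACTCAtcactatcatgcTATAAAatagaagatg

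Counted back from the start, the AP-1 match of Mmp13 covers bases -35 to -29, the Runt match -119 to -113 and the TATA match -16 to -11. Mmp13 is the end gene of a run of 10 MMP genes with no other protein-coding gene between them in the RefSeq annotation. The 6 other members in that run are Mmp12, Mmp1b, Mmp3, Mmp1a, Mmp10 and Mmp7, in order from Mmp13. All 6 hold an AP-1 match in the 250 bases before a RefSeq start, shown here as 30 bases each on the gene's own strand with the match in capitals.
Mmp12: gacatcaacagTGAGTCAgatagaggattt
Mmp1b: gttacaaagccTGAGTCAtatagcctctgg
Mmp3: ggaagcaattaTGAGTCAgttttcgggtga
Mmp1a: gttgtcaaccaTGAGTCAcatagcctctgg
Mmp10: tagcacccatgTGAGTCAtgcttagtgacc
Mmp7: aagtgtgcaaaTGAGTCAcctatttccaca

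RefSeq windows were found for 38 of the 64 member genes. An AP-1 match, sought on both strands, lay in 9 of these 38 genes, that is in the 7 members of the run, Adam19 and Adam29. Over all genes with a window the share was 5.16% (1395 of 27025). The Runt element was found in 2 member genes, Mmp13 and Mmp7, against 5.08% of all genes, and TATAAA, on the gene's strand, in 10 against 8.94%. A match describes letters in a window and not a site in use. Among the 7 members of the run, 2 were detected, Mmp13 and Mmp1a. Mmp1a, a mouse interstitial collagenase, read 160.4 in WT and 165.8 in KO, with a log2 ratio of 0.15. Of the 500 detected probes nearest to it in level, 164 had a ratio as high, so no direction was drawn from it. A part of the shared element in either ratio was not tested. The probes of Mmp3, Mmp7, Mmp10, Mmp12 and Mmp1b, enzymes of inflamed or remodelling tissue, were not above background on either array.

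Set against the detected probes nearest in level, both Mmp13 ratios were far out. Only 35 probes were brighter in WT than the bright Mmp13 probe, so most of the probes nearest to it are dimmer. Of the 500 detected probes nearest in level to the bright Mmp13 probe, 3 had a ratio as low, and 90% of those neighbours lay between -0.27 and 0.29. Of the 500 nearest to the second probe, 1 had a ratio as low. Among all 11742 detected probes 9 had a ratio at or below that of the second probe, itself included.

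**Figure D1:**
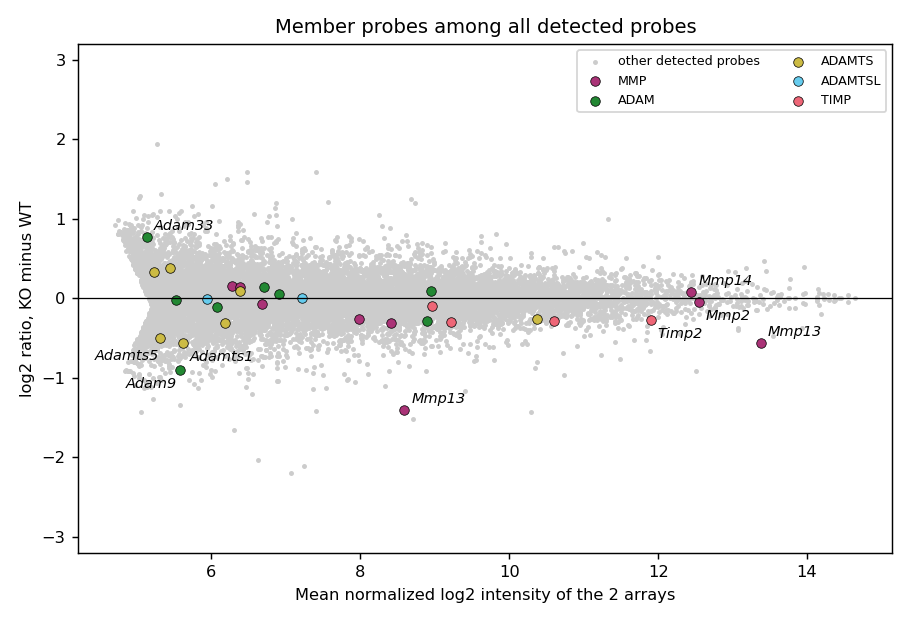
Log2 ratio of KO to WT (y axis) against the mean normalized log2 intensity of both arrays (x axis) for all 11742 detected probes, with member probes coloured by family; 1 other probe lies outside the plotted range. The bright Mmp13 probe, at a ratio of -0.57, stands below nearly all probes of its brightness, and the second Mmp13 probe lies at -1.41.

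The Mmp13 probes differed in size although not in direction. As a guide to measurement error, the ratios of the brightest pair of probes of a gene, both detected on both arrays, were compared in 1791 genes. The median difference was 0.19, the 95th percentile 0.63 and the SD per probe 0.22. The Mmp13 pair differed by 0.84, and 28 of the 1791 genes had a pair that far apart. The mean of the pair was -0.99, or 1.98-fold, and 3 genes, Mmp13 included, had a pair mean this low. Timp1 and Adam23 were the other members with such pairs, and theirs differed by 0.20 and 0.05. The spread between probes holds no variation between animals.

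**Figure D2:**
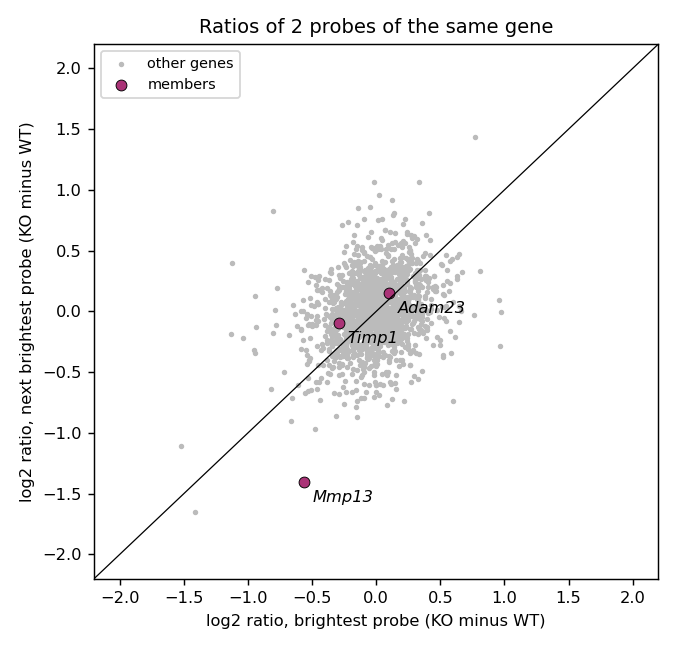
Log2 ratio of KO to WT of the brightest probe of a gene (x axis) against that of the next brightest (y axis) in 1791 genes, with equal ratios on the line and the 3 member genes in purple. Mmp13 lies at -0.57 and -1.41, apart from the main cloud, while Timp1 and Adam23 lie inside it.

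Markers of bone and cartilage cells, which can make Mmp13, were set beside it. All 6 matched osteoblast markers were detected, 5 of them above 0 and 1 below, with a median of 0.07 and a range from -0.28 for Ibsp to 0.19 for Alpl. Their summed normalized intensity was 36255 in KO against 35347 in WT, most of it from Bglap, which read 24085.4 and 23900 in deposited intensity, near the highest values of the arrays. Alpl is also used in the paper as a marker of the stratum intermedium, a layer of dental epithelium. Of the osteoclast markers 2 of 7 were detected, and they summed to 1251 in KO against 1383 in WT. Ctsk lay at -0.14 and Oscar, detected in WT only, at -0.29 measured and -0.17 limited. The cartilage markers Col2a1, Matn1, Matn3 and Col9a1 were not detected, and the other 2 of that list, Acan and Comp, were. Acan lay at -0.06 and Comp, detected in KO only, at 0.31 measured and 0.13 limited. Markers of odontoblasts and dental mesenchyme, 4 of 8 detected, summed to 6325 in KO against 5315 in WT. Of these, 3 lay above 0 and 1, Fgf10, lay at -0.53. Fibroblast markers, 6 of 8 detected, summed to 15726 against 15072. Of these 6, 2 lay above 0, Dcn among them at 0.52, and 4 below, with a median of -0.12. Which cells gave the Mmp13 signal was not tested. The immediate-early list, which was lower as given above, includes AP-1 subunits, and its part in the Mmp13 difference was not tested.

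Over all members, 27 of 64 genes (42.2%) were detected, against 50.5% of all named genes. These 27 had 30 detected probes. The ADAMs of testis and epididymis had 0 of 17 genes detected. With a detection p under 0.05, Adam4, Adam5, Adam24 and Adam32 of this group counted as detected. Of the 27 genes, 17 had a log2 ratio below 0, 9 above, and Adamtsl2 read 0.00. Among all 8378 detected genes 49.7% lay below 0, and with median scaling, which moved the median of all genes to -0.13, 22 members and 69.4% of all genes did. The median over the members was -0.07, against 0.00 over all detected genes.

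Few members passed 1.5-fold, the fold limit of the study's methods. By the rule of 1 probe per gene, 1 member was lower by this limit, Adam9, and 0 were higher, whereas 2.24% of all detected genes were lower and 1.78% higher. By single probes 2 of 30 were lower, Adam9 and the second Mmp13 probe, against 2.17% of all detected probes. No member gene reached 2-fold. Counts this small do not set the members apart from the background. The members were spread unevenly at smaller sizes, with 12 of 27 in the lowest 25% of all detected genes, at or below -0.16, and 3 in the highest 25%, at or above 0.17. The 3 were Adam33, Adamts16 and Adamts7, all with dim probes, and the limited ratio of Adamts7, 0.14, lies below that limit. The division into 25% groups was chosen after the values were seen.

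**Figure D3:**
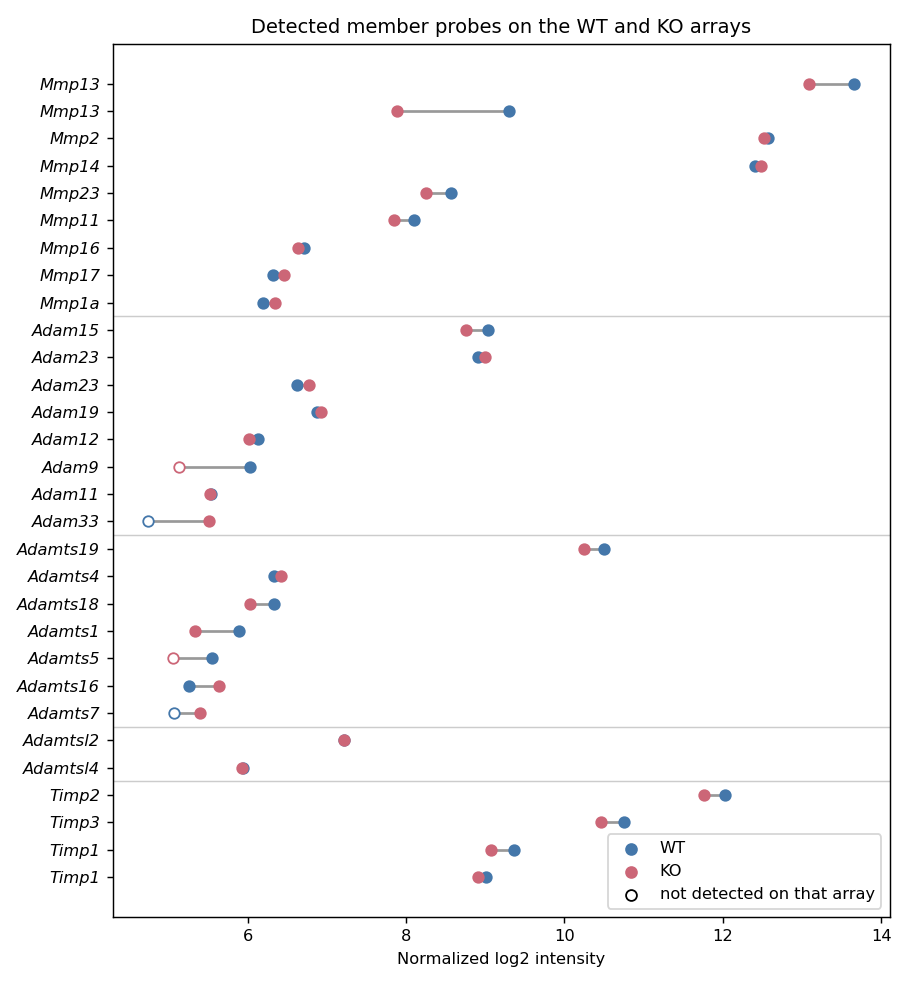
Normalized log2 intensity (x axis) of each of the 30 detected member probes on the WT array (blue) and the KO array (red), grouped by family from MMPs at the top to TIMPs at the bottom, with open circles where the probe was not detected on that array. The Mmp13 and TIMP probes all have the red point to the left of the blue one, and the Mmp2 and Mmp14 points nearly coincide.

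The 3 detected TIMPs were all lower on the KO array, by nearly the same amount on the brightest probe of each gene. Timp1, a secreted inhibitor, read 788.0 in WT and 597.0 in KO on its brighter probe and 627.9 and 541.4 on the other. Timp2, which inhibits gelatinase A but also takes part in its activation by Mmp14, read 4543.7 and 3316.0. Timp3, which binds to the matrix and also inhibits ADAMs and ADAMTS proteases, read 1925.0 and 1416.0. Every TIMP probe that was detected thus read lower in the KO. Part of each gap was removed by normalization, after which the log2 ratios were -0.29 and -0.09 for Timp1, -0.27 for Timp2 and -0.29 for Timp3, with 1.22, 1.20 and 1.22-fold differences for the brighter Timp1 probe, Timp2 and Timp3.

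These differences are small, and for bright probes small ratios are also the rule. Among the 500 detected probes nearest in level, 18 had a ratio as low as Timp3, 27 as low as Timp2 49 as low as the brighter Timp1 probe and 170 as low as the other Timp1 probe. The median over the 3 TIMPs was -0.29, against 0.00 over all detected genes, of which 13.8% had a ratio as low as that of Timp3. The sizes compare with an SD per probe of 0.22. Timp4, the TIMP of heart and vessel, read 107.2 and 96.4 and was not detected, and a second Timp3 probe was not detected either. Of the smooth muscle and endothelial markers, 5 of 7 detected in each list were lower too, and their part in the TIMP ratios was not tested.

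The enzymes that meet Timp2 at the cell surface differed little. Mmp2, gelatinase A, read 6465.8 in WT and 5666.6 in KO, and Mmp14, the membrane-type MMP that activates it, read 5788.7 and 5541.4. After normalization the log2 ratios were -0.05 and 0.08. With median scaling that of Mmp14 was -0.04, so its sign depends on the scaling. The ratio of the fourth detected secreted MMP of the collagenase, gelatinase and stromelysin class, Mmp11 or stromelysin-3, was -0.25, from 373.0 and 306.1. That class thus held Mmp13 and Mmp11 in the lowest 25% of all genes, and Mmp2 and Mmp1a between the limits.

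Membrane-type and other MMPs completed the family. Mmp16, an MMP with a transmembrane anchor, lay at 6.71 in WT and 6.64 in KO on the normalized log2 scale, a ratio of -0.07. Mmp17, which is held by a lipid anchor, lay at 6.32 and 6.45, a ratio of 0.14. Neither differed by more than the SD between probes of a gene. Mmp23, a membrane-bound MMP that is released by cleavage, was lower, at 485.4 in WT and 376.0 in KO with a ratio of -0.32, and 56 of the 500 probes nearest in level had a ratio as low. The median over the 8 detected MMP genes was -0.06, with 5 below 0 and 3 above, and under median scaling 6 would lie below because Mmp14 changes sign. Mmp19, Mmp21, Mmp24 and Mmp28 were not detected.

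ADAMs with a protease domain were split. Adam9, a widely expressed sheddase, read 152.3 in WT and 122.6 in KO. It was detected in WT, while the KO detection p of 0.011 lay just outside the limit, so that the KO value has only a limit. The limited log2 ratio was -0.88, against -0.51 with an offset of 50 and -0.32 in the authors' normalized values. The measured log2 ratio was -0.90, and 2 of the 500 probes nearest in level had one as low. Adam15, found in vessel and epithelium, was lower at 638.7 in WT and 497.6 in KO, with a ratio of -0.28. Adam12 and Adam19, the meltrins of muscle, bone and heart development, read 157.3 and 206.8 in WT and 150.6 and 204.6 in KO. Their ratios were -0.11 and 0.06, and the latter became -0.05 with median scaling.

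Adam33, a mesenchymal ADAM linked to human asthma, went the other way. It read 110.5 in WT, where it was not detected at a detection p of 0.061, and 132.9 in KO, where it was. The measured ratio of 0.77 rests on a WT value within background, and the limited ratio was 0.26, against 0.14 with an offset of 50 and 0.08 in the authors' normalized values. Adam9 and Adam33 are both dim, and their deposited intensities differed by far less than their background-corrected ratios. In the authors' normalized values the measured log2 ratios were -0.32 for Adam9 and 0.23 for Adam33. Adam8 and Adam28, ADAMs of leukocytes, were not detected on either array, while neutrophil markers were higher in the KO.

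The catalytically inactive ADAMs bind LGI proteins in the nervous system. Adam23 was detected by a pair of probes, which read 591.6 and 187.7 in WT and 570.4 and 192.8 in KO. Their log2 ratios were 0.10 and 0.15, and the 0.10 became -0.05 with median scaling. Adam11 read 131.9 and 133.0, with a ratio of -0.02, and Adam22 was not detected. The median over all 7 detected ADAM genes was -0.02. The 17 genes not detected from the testis and epididymis group, some of which serve sperm and egg interaction in mouse, were Adam1b, Adam2, Adam3, Adam4, Adam5, Adam6a, Adam7, Adam20, Adam21, Adam24, Adam25, Adam26a, Adam29, Adam30, Adam32, Adam34l and Adam39. The 5 matched germ cell markers were not detected either.

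The ADAMTS proteases that cleave proteoglycans included a pair of lower members. Adamts1, which cuts versican and aggrecan, read 146.0 in WT and 127.5 in KO, with a log2 ratio of -0.56 and a 1.47-fold difference. Of its 500 neighbours in level 26 had a ratio as low. Adamts5, an aggrecanase, read 132.5 and 120.8 and was detected in WT only, with a limited log2 ratio of -0.40. Adamts4, the other aggrecanase, read 168.4 and 170.3, with a ratio of 0.10 that became -0.01 with median scaling. These are dim probes, and in the authors' normalized values the measured ratios were -0.20 for Adamts1, -0.16 for Adamts5 and 0.05 for Adamts4, and the limited ratio of Adamts5 was -0.13. Adamts8, Adamts15 and Adamts20 were not detected, nor was Adamts3, a procollagen N-proteinase.

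Adamts19, among the other ADAMTS proteases, was well above background. It read 1619.1 in WT and 1218.1 in KO, with a log2 ratio of -0.25, and 39 of 500 neighbours had a ratio as low. Adamts18 was lower at 168.4 and 150.7, with a ratio of -0.30, or -0.14 in the authors' values. Both lay in the lowest 25% of all genes. Adamts16 read 123.5 and 136.7, a ratio of 0.38, or 0.13 in the authors' values. Its WT value, 5.26 in log2, equals the lowest detected value of that array. Adamts7, which cuts the cartilage protein COMP, read 118.4 and 129.3 and was detected in KO only. Its limited ratio was 0.14, or 0.04 in the authors' values. The median over the 7 detected ADAMTS genes was -0.25, with 4 below 0 and 3 above, or 5 and 2 with median scaling since Adamts4 changes sign, and Adamts12, Adamts13 and Adamts17 were not detected. The ADAMTS-like proteins, which bind fibrillin microfibrils, had nearly equal values on both arrays, with ratios of 0.00 for Adamtsl2, from 238.7 and 230.5, and -0.01 for Adamtsl4, from 148.1 and 147.0.

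**Figure D4:**
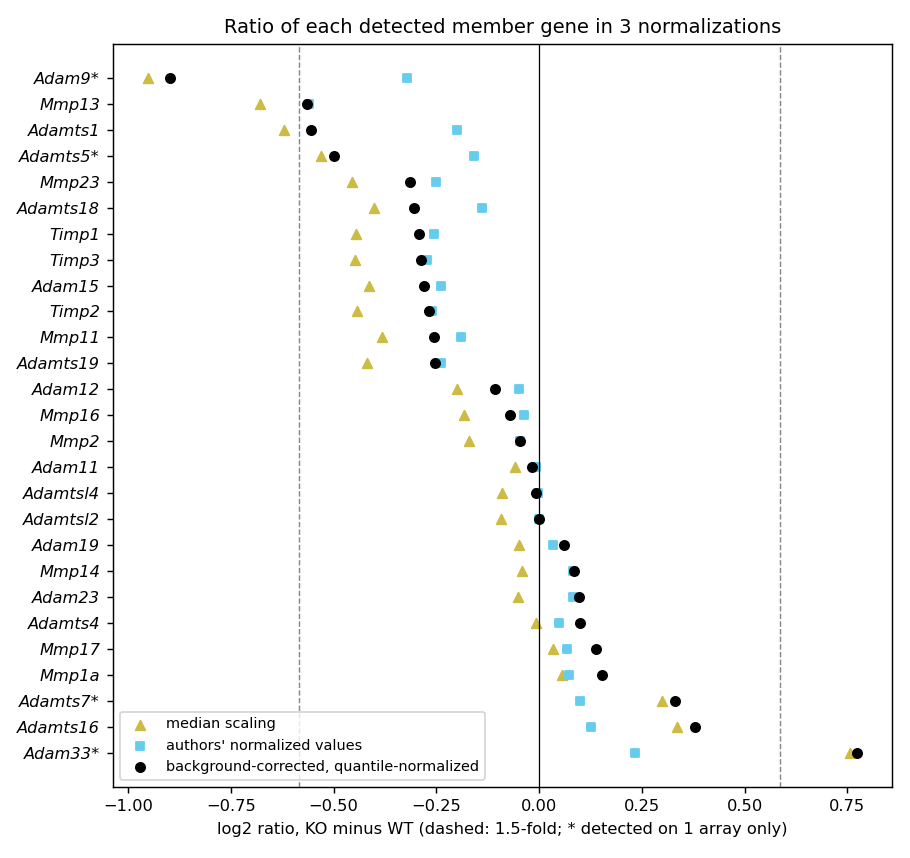
Log2 ratio of KO to WT (x axis) of the 27 detected member genes (y axis, lowest at the top) after background correction and quantile normalization (black circles), in the authors' normalized values (blue squares) and with median scaling (yellow triangles), with dashed lines at 1.5-fold and asterisks for genes detected on 1 array only. The bright genes Mmp13, Timp2 and Timp3 stay in place between the first 2 of these, the dim genes Adam9, Adam33 and Adamts1 move towards 0 in the authors' values, and median scaling moves the points to the left.

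Genes that activate, restrain or receive these enzymes showed no common direction. Of the activating and partner proteases 11 of 19 matched genes were detected, 4 above 0 and 7 below, with a median of -0.10 and 0 genes past 1.5-fold. St14, the epithelial serine protease matriptase, was 1.46-fold higher, from 256.5 to 315.2, and its partner Prss8 lay at 0.31. Plau, the plasminogen activator urokinase, lay at -0.32 and Klk4, the late enamel protease, at -0.32. Ctsl, the lysosomal protease cathepsin L, was detected in WT only, at 124.3 against 114.4, a ratio of -0.53 measured and -0.14 limited. Furin, which removes the propeptide of many members, lay at -0.10.

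Of the inhibitors, receptors and clearance genes 18 of 22 were detected, 10 above 0 and 8 below, with a median of 0.05. The 1 gene past 1.5-fold was Serpinh1, at 1.84-fold higher, from 344.2 in WT to 518.1 in KO. Serpinh1 encodes a collagen chaperone of the serpin family and does not inhibit the members. Reck, a membrane inhibitor of MMPs, read 849 in WT and 836.5 in KO, with a ratio of 0.16 after normalization. This is less than the SD per probe of 0.22, so no direction was drawn from it. Pcolce2, an enhancer of procollagen processing, was detected in WT only, at -0.85 measured and -0.29 limited, while its relative Pcolce lay at 0.27. Plaur, the urokinase receptor, was detected in KO only with a WT value within background, at 102.1 against 123.6. Its ratio was 0.73 measured and -0.08 limited, so its sign depends on the limit. Serpina1a, a blood serpin, lay at 0.36.

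Partners of the ADAMs, among them LGI proteins that bind the inactive ADAMs, had a median of 0.06 over 11 of 18 genes, 7 above 0. Lgi4 lay at 0.43, Lgi2 at 0.34 and Tspan33 at -0.40. Sh3pxd2a, a scaffold of invasive adhesions, was detected in KO only, with a measured ratio of 0.51 and a limited ratio of 0.13. Proteins that the members shed or cut at the surface had a median of -0.05 over 11 of 23 genes, 8 below 0. Igfbp3, a carrier of insulin-like growth factors, was 1.33-fold lower, from 3060.3 to 2075.8, Notch1 lay at 0.37, Cxcl16 at -0.27 and Hbegf at -0.11. Matrix substrates had a median of 0.00 over 18 of 22 genes, 9 above 0 and 8 below. Vwf, a blood vessel protein, was 1.72-fold lower and the only one past 1.5-fold. Dcn or decorin was 1.44-fold higher, from 3731.6 to 4659.7, and Vcan or versican lay at -0.32. Comp, detected in KO only, lay at 0.31 measured and 0.13 limited.

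**Figure D5:**
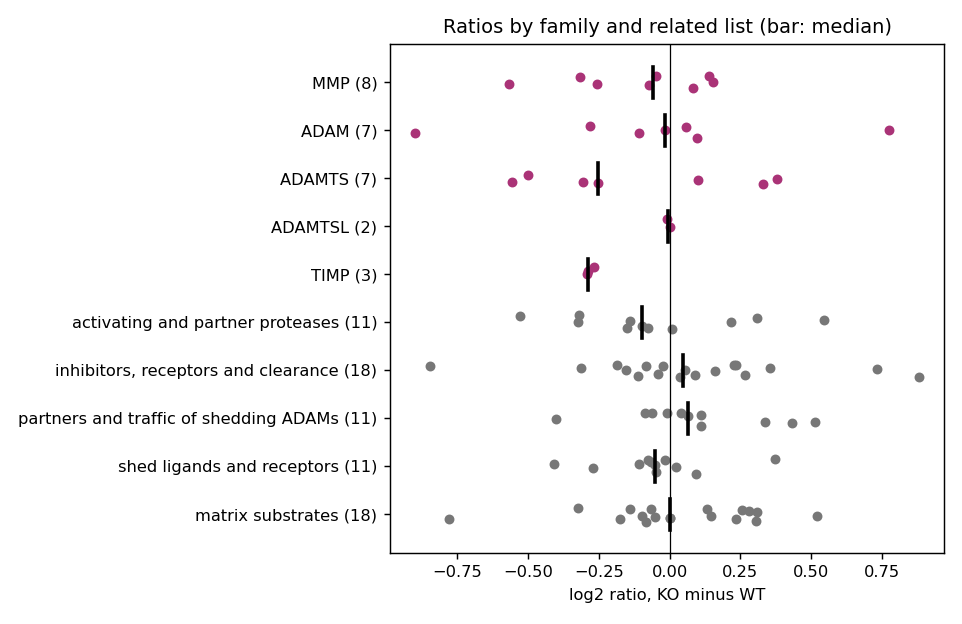
Log2 ratio of KO to WT (x axis) of each detected gene of the 5 member families (purple) and of 5 lists of activators, inhibitors, partners and substrates (grey), with the number of detected genes in brackets and the median as a bar. The 3 TIMPs sit together near -0.29, the 2 ADAMTSL genes sit at or just below 0, and the MMP, ADAM and ADAMTS families and the lists spread on both sides of 0.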

How the data were processed

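RNA of 1 WT and 1 KO CL sample was measured on Illumina MouseRef-8 v2 bead arrays. GenomeStudio was used for the readout, and the authors deposited linear intensities without background subtraction or normalization, each followed by a column of detection p-values without a sample name, here taken for the array named just before. The authors' normalized intensity, also deposited, equals quantile normalization of these to within 2.1 units. The sources used here do not say if a column is 1 array or a mean. The neqc function of limma 3.58.1 in R 4.3.3 (normexp, offset 16, quantile normalization, log2) gave the values used, and these steps were tested on simulated data. Limited ratios set the detected value against the higher of the dim value and the lowest detected value of the other array, 5.26 in WT and 5.15 in KO (log2). Gene names came from the platform annotation, in which 1719 probes have none. Sequences are from RefSeq, GRCm38.p6, used for no array coordinate. Members, gene lists and role classes were chosen with earlier results of these data known. All detected members are named, and up to 4 genes with the widest ratios of each related list, with some further ones chosen after their values were seen. The 500 neighbours in level, the probe pairs and the motifs were also chosen after values were seen. The number of arrays limits the precision. Alternatives were other background corrections, offsets, scalings, detection limits and probe rules.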

Additional observations from a re-analysis of the deposited data

How the results depend on the processing

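The count of members past 1.5-fold, 1 in the main setting, changed through the dim Adam9, Adam33 and Adamts1 and the bright Mmp13. It was 0 in the authors' normalized values, 0 without background correction, 0 with an offset of 50 and 0 where detection on both arrays was required, which leaves out Adam9. It was 3 with median scaling (Adam9, Adamts1 and Mmp13, all lower), 2 with the mean over probes (Adam9 and Mmp13) and 2 with a detection p under 0.05, where Adam33 made 1 higher and Adam9 stayed 1 lower. It was 2 when each probe was counted by itself, an alternative added after seeing the data. The counts of lower members alone were therefore 0, 0, 0, 0, 3 and 2 in the first 6 of these. No member gene reached 2-fold in any of the 7 settings. Median scaling moved the median of all detected genes to -0.13 and that of the members to -0.18, and turned the sign of Adam19, Adam23, Adamts4 and Mmp14. The members in the lowest 25% of all genes numbered 12 in 5 of the 7 settings, 10 with detection on both arrays and 16 of 36 with a detection p under 0.05. Family medians moved by less than the SD between probes, with -0.45 to -0.26 for TIMPs and -0.40 to -0.08 for ADAMTS genes. Mmp13 lay between -0.99 and -0.56. Its second probe was at -1.15 in the authors' values. Signal over background limits the dim members. No paired analysis was possible because each genotype has 1 column and nothing was tested.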
